A study of Homo sapiens with 3 samples.

Results

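The long arm of chromosome 1 (1q) from 150 Mb onward was examined in ChIP-seq peak lists of codanin-1 and GATA1 from K562, a human erythroleukaemia cell line derived from chronic myeloid leukaemia in blast crisis. Peaks of both lists were taken by position alone: chromosome 1, midpoint at or beyond 150000000 (hg19), leaving out the stretches from 161300000 to 161700000 and from 228600000 to 228900000. This gave 737 of 14365 codanin-1 peaks (5.13% of the list) and 101 of 5164 GATA1 peaks (1.96%), together 838 of 19529. The series has 3 libraries from cells for which the labels name no genetic change and no treatment, 1 per antibody: Cod1, a homemade antibody to residues 123 to 142 of codanin-1, the GATA1 antibody N6, and non-specific rabbit IgG. A peak list of the IgG library was not analysed here. With 1 library per antibody no value below has a replicate error. A broad peak list carries no read counts, so the depth is unknown and the list lengths do not rank the antibodies. Intervals are 95% exact intervals that cover counting error only. They treat neighbouring peaks as independent, and no p-value was computed.

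Codanin-1, the product of CDAN1, is mutated in congenital dyserythropoietic anaemia type I, a disorder of red cell precursors with abnormal heterochromatin. It binds the histone chaperone ASF1, which hands histones H3 and H4 to the factors that build nucleosomes. GATA1 is the zinc finger transcription factor that drives erythroid genes from GATA motifs in promoters and enhancers. The long arm of chromosome 1 alternates gene-rich and gene-poor bands, and carries among others the epidermal differentiation complex, the blood group and complement regulator genes CR1 and CD55, and olfactory receptor genes near its end. Peaks were not assigned to genes or to base sequence, because the gene and promoter tables used here are of build GRCh38 and the peaks are on hg19.

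Codanin-1 peaks were spread along almost the whole of 1q, whereas GATA1 peaks were few and left long stretches empty. A shorter list tends to leave longer stretches empty, so this contrast does not by itself compare the placement of the peaks. Codanin-1 had 7.57 peaks per Mb and GATA1 1.04, over 97.4 Mb up to the last peak of chromosome 1. On the short arm (1p) from 30 to 120 Mb, 718 codanin-1 and 122 GATA1 peaks gave 7.98 and 1.36 per Mb. The density on 1q over that on 1p was 0.949 for codanin-1 (interval 0.855 to 1.05) and 0.765 for GATA1 (0.582 to 1.00). Both intervals include 1, that of GATA1 narrowly, and the GATA1 call depends on the setting. The GATA1 ratio was 0.684 (0.510 to 0.913) when 1q was started 10 Mb later, 0.758 (0.576 to 0.995) when peaks within 1 kb were merged, and 1.08 (0.839 to 1.38) with the left-out stretches kept. With 1p taken from the chromosome start, which adds its denser end, the ratios were 0.249 (0.199 to 0.309) for GATA1 and 0.574 (0.525 to 0.627) for codanin-1.

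The last codanin-1 peaks before the start lay at 149887871 to 149888008 (3.78-fold) and 149908599 to 149908764 (4.28-fold). The first inside were at 150310052 to 150310152 (4.76-fold) and 150481390 to 150481499 (5.68-fold). For GATA1 the nearest peaks outside were at 149288561 to 149288823 (3.96-fold) and 149673747 to 149673949 (4.03-fold), and those inside at 150522117 to 150522355 (4.37-fold) and 150552008 to 150552214 (3.99-fold). The last codanin-1 peak of the chromosome ended at 248059856 and the last GATA1 peak at 247383674. Fold here and below is the fold enrichment that the authors deposited for each peak, over the background of their peak caller.

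Counted in windows of 1 Mb, 94 of 99 windows on 1q held a codanin-1 peak and 49 held a GATA1 peak. The median window held 5 codanin-1 peaks and 0 GATA1 peaks, and the fullest held 29 and 8. On 1p, 72 of 90 windows held a codanin-1 peak and 41 a GATA1 peak, with medians of 3 and 0 and maxima of 35 and 11. The window counts of codanin-1 varied less on 1q. Their variance was 5.59 times their mean on 1q and 11.2 times on 1p, and the 10 fullest windows held 28.6% of the peaks on 1q against 38.9% on 1p. For GATA1 the corresponding values were 1.96 against 3.47 times, and 40.6% against 50.8%. The size of these values depends on the setting. For codanin-1 they were 3.60 on 1q and 6.90 on 1p in windows of 0.5 Mb, 9.10 and 21.1 in windows of 2 Mb, and 1.65 and 2.92 at a −log10 q of 2 or more. With that q limit GATA1 went the other way, at 1.45 and 1.12. The left-out stretches of 1q, with 17 and 25 GATA1 peaks, are not in these windows. The variance over the mean with them kept was not computed, so the order of the arms holds only without them. Windows are not replicates, and these differences were not tested.

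**Figure D1:**
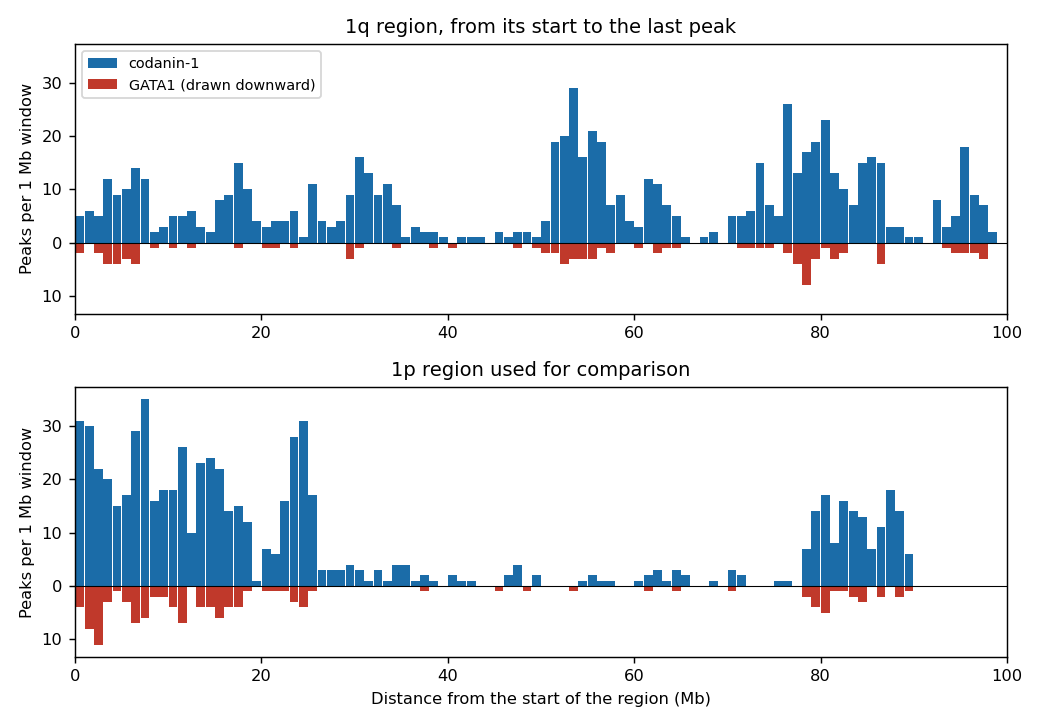
Peaks per 1 Mb window (y axis) against distance from the start of the region in Mb (x axis), for 1q (top) and for 1p from 30 to 120 Mb (bottom), with codanin-1 drawn upward and GATA1 downward. On 1q the codanin-1 bars reach 29 and 5 windows are empty, while on 1p they reach 35 and 18 windows are empty; peaks in the 2 left-out stretches of 1q are not drawn.

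Codanin-1 peaks were densest in 3 stretches of 1q, taken as runs of at least 3 windows with 12 or more peaks each. The first ran from 201000001 to 207000000 and held 124 codanin-1 and 16 GATA1 peaks, or 20.7 and 2.67 per Mb. The second, from 226000001 to 232000000, held 111 and 21, or 18.5 and 3.50 per Mb, besides the peaks of the left-out stretch inside it. Both antibodies had peaks in each of the 6 windows of these stretches. The third, from 234000001 to 237000000, held 46 codanin-1 peaks but 4 GATA1 peaks, all 4 in a single window. Together the 3 stretches took up 15.2% of the windows and held 38.1% of the codanin-1 and 40.6% of the GATA1 peaks. By the same definition 1p had 4 stretches, which took up a larger share of its windows, 27.8%. They held 72.7% of the codanin-1 and 78.7% of the GATA1 peaks there. Because codanin-1 counts define the stretches, their codanin-1 share is high by construction on both arms.

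The fullest single window for codanin-1 was 203000001 to 204000000, with 29 codanin-1 and 3 GATA1 peaks. The window at 226000001 to 227000000 followed with 26 and 2, and the one at 230000001 to 231000000 with 23 and 1. In the stretch that begins at 201000001, 4 further windows were among the 10 fullest: 205000001 to 206000000 (21 codanin-1 and 3 GATA1 peaks), 202000001 to 203000000 (20 and 4), 201000001 to 202000000 (19 and 2) and 206000001 to 207000000 (19 and 1). The remaining 3 were 229000001 to 230000000 (19 and 3), 245000001 to 246000000 (18 and 2) and 228000001 to 229000000 (17 and 8). The window at 245000001 was the single one of these 10 outside the dense stretches, which the same counts define. For GATA1 the fullest window was 228000001 to 229000000, with 8 peaks besides those of the left-out stretch inside it. Windows with 4 GATA1 peaks began at 153000001, 154000001, 156000001, 202000001, 227000001 and 236000001. The windows with 3 that completed the 10, taken in order of position, began at 155000001, 179000001 and 203000001. Of these 10 windows, 4 lay between 153000001 and 157000000, where codanin-1 had 9 to 14 peaks per window and no window among its 10 fullest.

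Sparse stretches, taken as runs of at least 5 windows with 3 or fewer codanin-1 peaks each, were also 3 in number. From 185000001 to 200000000 there were 20 codanin-1 peaks (1.33 per Mb) and 4 GATA1 peaks (0.267 per Mb). From 215000001 to 220000000 there were 4 codanin-1 and 0 GATA1 peaks, and from 237000001 to 242000000 there were 8 and 0. These stretches made up 25.3% of the windows of 1q and held 4.34% of its codanin-1 and 3.96% of its GATA1 peaks. Those of 1p covered 45.6% of its windows, the longer from 78000001 to 108000000. The codanin-1 share of sparse stretches is low by their definition.

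The longest stretch of 1q without a codanin-1 peak was 2.23 Mb, from 189079986 to 191312572, and it held 1 GATA1 peak. The next were 193477083 to 195612313 (2.14 Mb), 240172113 to 242089419 (1.92 Mb), 215730888 to 217458608 (1.73 Mb) and 198300478 to 199921230 (1.62 Mb, with 1 GATA1 peak). On 1p the longest such stretch was 5.40 Mb. The stretches without a listed GATA1 peak were far longer, in a list with far fewer peaks on 1q. From 214846694 to 221914891 (7.07 Mb) no GATA1 peak was listed, but 12 codanin-1 peaks were. The stretches 236947801 to 243650870 (6.70 Mb) and 190995669 to 197191389 (6.20 Mb) held 18 and 6 codanin-1 peaks. Those from 173349153 to 179050622 (5.70 Mb) and from 162697015 to 167023768 (4.33 Mb) held 27 and 25 codanin-1 peaks, so they were empty of GATA1 calls in moderately filled parts of the codanin-1 list.

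The counts of both lists, taken without the left-out stretches, rose and fell together along 1q, but less tightly than along 1p. Over the 99 windows Spearman's rho was 0.55 and Pearson's r 0.55, against 0.77 and 0.83 over the 90 windows of 1p. The windows share both libraries, and mappability and copy number were not accounted for, so these coefficients are descriptive. The coefficients with the left-out stretches kept were not computed, so the order of the arms holds only without them. On 1q 48 windows held both kinds of peak, 46 held codanin-1 alone, 1 held GATA1 alone and 4 held neither. Windows with a GATA1 peak had a median of 9 codanin-1 peaks and those without had 3, yet a window without any GATA1 peak held up to 16 codanin-1 peaks.

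There were 7.30 codanin-1 peaks for each GATA1 peak on 1q (interval 5.92 to 9.08), against 5.89 on 1p (4.85 to 7.19) and 2.78 over all chromosomes (2.69 to 2.87). The ratio on 1q was 1.24 times that on 1p (0.925 to 1.66), an interval that includes 1. This call is lost when 1q is started 10 Mb later (1.38, 1.01 to 1.89) and when 1p is taken from the chromosome start (2.31, 1.82 to 2.94), and the value is 0.920 (0.701 to 1.21) with the left-out stretches kept. Among the other 22 chromosomes besides Y, taken whole, the ratio ran from 1.25 on chromosome 22 to 5.13 on chromosome 6 with a median of 3.19, and 0 of 22 exceeded the value of 1q or of 1p. These chromosomes were counted whole, with their crowded loci, whereas 1q was counted without its left-out stretches and 1p from 30 Mb. With 1p from the chromosome start its ratio was 3.16, below that median. The 2 left-out stretches of 1q held 37 codanin-1 and 42 GATA1 peaks (0.881 codanin-1 per GATA1), and with them the ratio on 1q was 5.41.

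The ratio was not constant along 1q. In the first 10 Mb, 78 codanin-1 and 20 GATA1 peaks gave 3.90 (2.36 to 6.73). The 10 Mb from 160 Mb had 67 and 3, a ratio of 22.3 (7.32 to 111), and the 10 Mb from 180 Mb had 65 and 3, a ratio of 21.7 (7.09 to 108). Block counts omit the left-out stretches. Those held 9 codanin-1 and 17 GATA1 peaks in the block from 160 Mb, and 28 and 25 in the block from 220 Mb. From 200 to 210 Mb there were 148 and 20 (7.40, 4.62 to 12.5), and from 220 to 230 Mb 118 and 21 (5.62, 3.51 to 9.41). The emptiest block, 190 to 200 Mb, had 11 and 3. The blocks from 170, 210, 230 and 240 Mb had ratios of 8.17, 8.40, 10.6 and 5.30. Counted without the left-out stretches, the first 10 Mb stood lowest among blocks with at least 10 GATA1 peaks. Its ratio was 0.479 times that of the remainder of 1q (0.273 to 0.873), which had 8.14. Both values rest on leaving out those stretches, which lie in the remainder. That block was singled out after its values were seen.

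**Figure D2:**
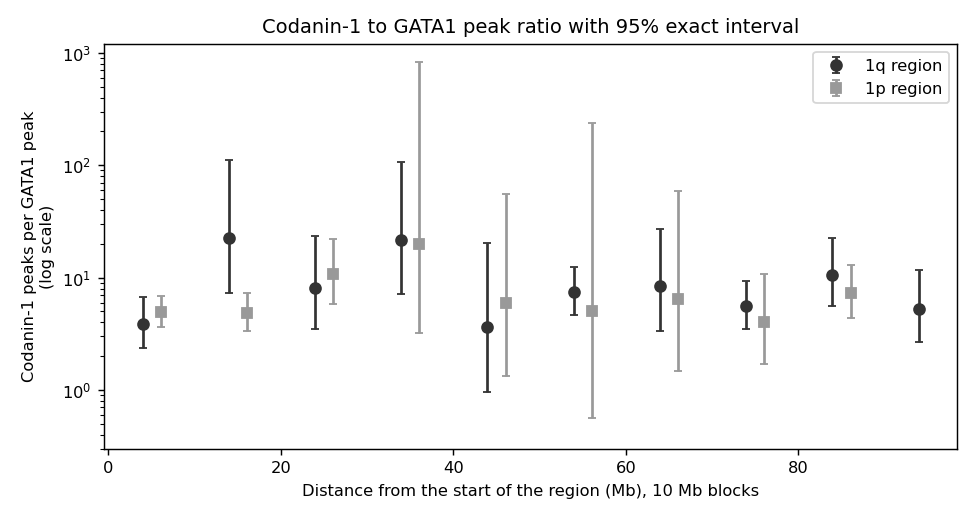
Codanin-1 peaks per GATA1 peak (y axis, log scale) in blocks of 10 Mb, by distance from the start of the region in Mb (x axis), for 1q (circles) and 1p (squares), with 95% exact intervals as bars. The first block of 1q sits at 3.90, and the blocks that begin 10 and 30 Mb further sit at 22.3 and 21.7 with wide intervals because each has 3 GATA1 peaks. Left-out stretches are not counted, and the one in the block at 22.3 held 9 codanin-1 and 17 GATA1 peaks.

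The median codanin-1 width was 197 bp (quartiles 115 and 331, longest 1319), against 217 bp on 1p (123 and 341, longest 959) and 220 bp over all chromosomes. The median GATA1 width was 126 bp (85 and 200, longest 400), against 132.5 bp on 1p and 168 bp over all chromosomes. Of the codanin-1 peaks on 1q, 131 (17.8%) had the smallest width in the list, 101 bp, and 226 (30.7%) were wider than 300 bp. On 1p these were 110 (15.3%) and 226 (31.5%). Over all chromosomes 16.9% of codanin-1 peaks had the smallest width. Widths depend on the threshold: at a −log10 q of 2 or more the codanin-1 median on 1q was 116 bp and the GATA1 median 73 bp. Of the GATA1 peaks 14 (13.9%) had their smallest width, 60 bp, and 1 was wider than 300 bp, against 31 (25.4%) and 5 on 1p. The smallest width was found in 11.3% of GATA1 peaks over all chromosomes, nearer to the share on 1q. Shares above 300 bp were not computed for the whole lists. Within the codanin-1 list the median width of the blocks of 10 Mb ran from 147 bp (170 to 180 Mb, 49 peaks) to 217.5 bp (200 to 210 Mb, 148 peaks).

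The median fold enrichment on 1q was 3.95 for codanin-1 (quartiles 3.78 and 4.28, range 1.59 to 6.37) and 4.24 for GATA1 (4.07 and 4.44, range 2.41 to 6.27). On 1p the medians were 4.01 and 4.26, and over all chromosomes 3.97 and 4.18. On 1q 37 codanin-1 peaks had a fold of 5 or more (5.02%, against 4.78% of the whole list), as did 8 GATA1 peaks (7.92%, against 5.25%). For 149 codanin-1 peaks (20.2%, against 22.9%) and 19 GATA1 peaks (18.8%, against 27.0%) the −log10 q was 2 or more. The codanin-1 shares lay near those of the whole list. Narrow codanin-1 peaks had the higher fold, with a median of 4.14 at the smallest width and 3.89 above 300 bp, and the same order held on 1p (4.32 and 3.91).

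**Figure D3:**
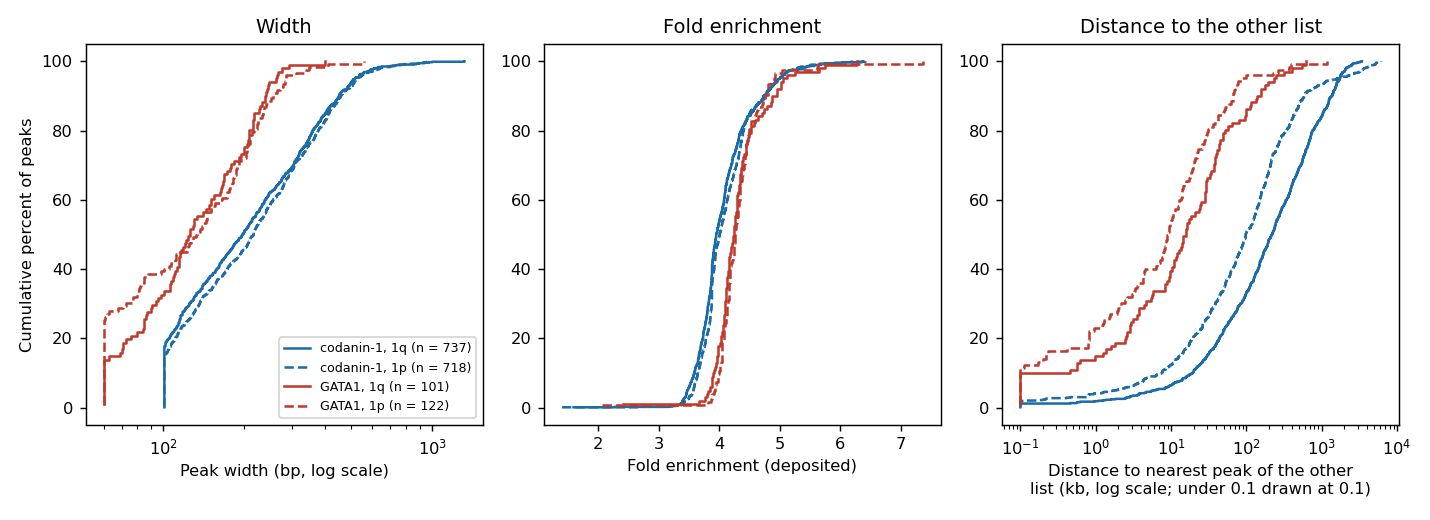
Cumulative percent of peaks (y axis) against peak width in bp (left, log scale), deposited fold enrichment (middle) and distance to the nearest peak of the other list in kb (right, log scale), for codanin-1 (blue) and GATA1 (red) on 1q (solid) and 1p (dashed). Width and fold run close together on both arms, whereas distances are longer on 1q, with medians of 219 kb from codanin-1 to GATA1 and 15.7 kb from GATA1 to codanin-1. Peaks in the left-out stretches of 1q are not drawn.

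The codanin-1 peak of highest fold on 1q lay at 235136218 to 235136333 (116 bp) with a fold of 6.37 and a −log10 q of 4.99. It was followed by 175109520 to 175109635 (6.36-fold), 228260097 to 228260212 (6.03-fold) and 231473623 to 231473744 (5.91-fold). The last of these had the highest significance of any codanin-1 peak on 1q, with a −log10 q of 5.83, and was the single one above 5. The others of the first 10 were 226713924 to 226714030 (5.75-fold), 181388899 to 181388999 (5.74-fold), 150481390 to 150481499 (5.68-fold), 156696651 to 156696753 (5.65-fold), 230230580 to 230231182 (5.57-fold) and 166510710 to 166510821 (5.56-fold). Of these 10, 9 were 101 to 122 bp wide and the other was 603 bp. Of the 10, 0 overlapped a GATA1 peak, and the nearest GATA1 peak was between 13.8 kb and 1760 kb away.

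Among GATA1 peaks the highest fold, 6.27, was at 202174526 to 202174605 (80 bp, −log10 q 8.79), with the nearest codanin-1 peak 11.6 kb away. In the same dense stretch the GATA1 peaks at 202053481 to 202053590 and 201253703 to 201253762 had 5.75 and 5.12. In the dense stretch that begins at 226000001 there were 4 more of the first 10: 228415103 to 228415171 (5.65-fold), 227463488 to 227463781 (5.24-fold), 227730901 to 227730971 (5.05-fold) and 228112004 to 228112063 (5.01-fold). The remaining 3 were 154531616 to 154531686 (5.02-fold), 247275924 to 247275983 (4.95-fold) and 162696901 to 162697014 (4.95-fold). Of these 10 GATA1 peaks, 7 lay in the 2 densest codanin-1 stretches, against 37 of all 101 GATA1 peaks on 1q (36.6%). That comparison was added after the data were seen. The peak at 162696901 to 162697014 overlapped a codanin-1 peak, and the other 9 did not.

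The widest codanin-1 peak, 1319 bp at 152188157 to 152189475, had a fold of 3.95. The next were 1000 bp at 245606251 to 245607250 (4.10-fold), 973 bp at 156736268 to 156737240 (4.08-fold), 937 bp at 234914305 to 234915241 (3.77-fold) and 893 bp at 230194188 to 230195080 (3.80-fold). The widest GATA1 peaks were 400 bp at 156186234 to 156186633 (2.41-fold), 294 bp at 227463488 to 227463781 (5.24-fold), 276 bp at 205763861 to 205764136 (3.98-fold), 268 bp at 226061371 to 226061638 (4.05-fold) and 265 bp at 232519356 to 232519620 (4.59-fold). The widest peak of each list overlapped a peak of the other list, and the other 4 of each did not.

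Few sites on 1q outside the left-out stretches were shared. By an overlap of at least 1 bp, 8 of 737 codanin-1 peaks (1.09%, interval 0.470 to 2.13) met a GATA1 peak, against 6.60% of the whole codanin-1 list and 3.96% (3.63 to 4.32) without chromosomes 9, 22, Y and M. From the other side, 9 of 101 GATA1 peaks (8.91%, 4.16 to 16.2) met one of codanin-1, against 20.2% of all GATA1 peaks and 13.5% (12.5 to 14.7) without those chromosomes. On 1p the numbers were 13 of 718 (1.81%, 0.967 to 3.08) and 13 of 122 (10.7%, 5.80 to 17.5). These shares rest on the region's bounds. With the 2 left-out stretches kept, overlaps on 1q numbered 34 among 774 codanin-1 peaks (4.39%), and 29 among 143 GATA1 peaks (20.3%), which is no longer below the genome shares without chromosomes 9, 22, Y and M. Those genome shares keep the crowded loci of the other chromosomes, so they and 1q are not alike. The odds of overlap on 1q over 1p were 0.595 for codanin-1 (0.213 to 1.56) and 0.820 for GATA1 (0.295 to 2.18), and both intervals include 1. The share for codanin-1 also moves with how many GATA1 peaks are near. The other 22 chromosomes, counted whole, ran from 1.76% to 24.9% for codanin-1 peaks (median 3.49%) and from 7.95% to 39.9% for GATA1 peaks (median 12.7%). The shares of 1q were below both medians without its left-out stretches and above both with them.

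The 8 shared codanin-1 peaks are given here in order along the chromosome. At 152188157 to 152189475 the widest codanin-1 peak met GATA1 peaks at 152187965 to 152188205 (3.77-fold) and 152188518 to 152188683 (3.95-fold). At 154833998 to 154834492 (4.19-fold) it shared 46 bp with a GATA1 peak (4.36-fold), and at 155531587 to 155531739 (3.41-fold) it shared 112 bp with another (3.82-fold). The codanin-1 peak at 156186249 to 156186636 shared 385 bp with the widest GATA1 peak. Further along, the codanin-1 peaks at 162696889 to 162697032 (4.22-fold) and 206328889 to 206329238 (3.99-fold) each contained a whole GATA1 peak, of 114 and 90 bp (4.95-fold and 4.07-fold). The last were at 236260444 to 236260642 and at 245988544 to 245988854. At the last, codanin-1 had a fold of 5.38 and a −log10 q of 3.27, and the GATA1 peak of 216 bp inside it had 4.07 and 1.34.

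Of the shared sites, 2 combined a low fold with a high significance in the GATA1 list. At 156186249 to 156186636 codanin-1 had the lowest fold on 1q, 1.59, with a −log10 q of 2.61. The GATA1 peak there also had the lowest fold of its list on 1q, 2.41, and the highest −log10 q, 9.06. At 236260444 to 236260642 codanin-1 had 2.27 with a −log10 q of 1.91, and GATA1 had 3.66 with 5.88. These were the 2 codanin-1 peaks on 1q with a fold under 3, and in each list they were the pair of lowest fold. The next lowest codanin-1 fold was 3.18. Over all chromosomes 252 codanin-1 peaks (1.75%) and 284 GATA1 peaks (5.50%) had a fold under 3, against 2 (0.271%) and 1 (0.990%) on 1q. Of the 3 GATA1 peaks on 1q with a −log10 q of at least 5, these 2 sites held 2, and the other was the peak of highest fold.

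**Figure D4:**
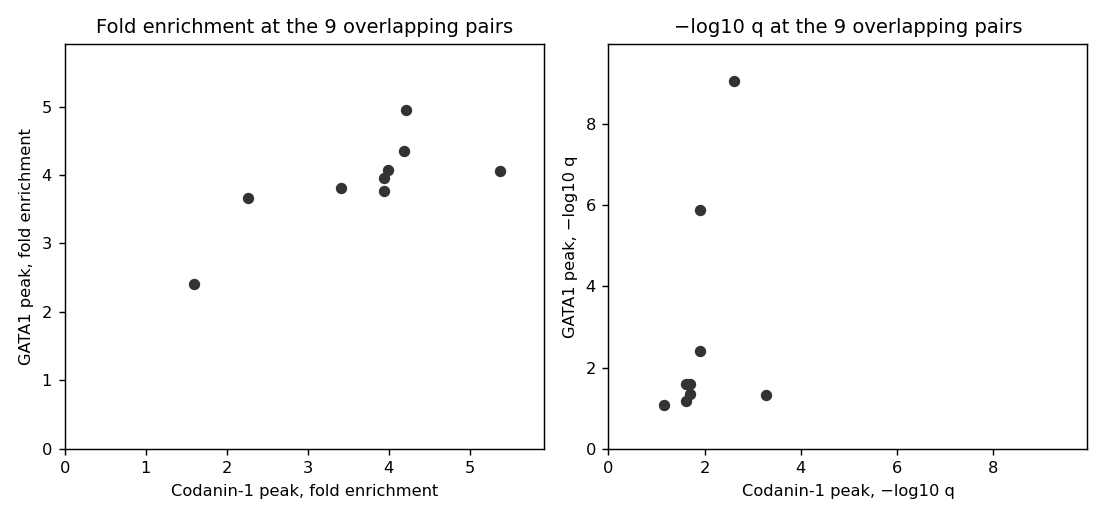
The 9 overlapping pairs on 1q, 1 point per GATA1 peak, with the deposited fold enrichment (left) and −log10 q (right) of the codanin-1 peak on the x axis and of the GATA1 peak on the y axis. The pair lowest in fold (1.59 and 2.41) is the one with the highest GATA1 −log10 q (9.06), and depth is unknown, so the axes are not on a common scale.

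Outside the left-out stretches, shared sites were concentrated near the start of the region. Within the first 10 Mb, 4 of 78 codanin-1 peaks (5.13%, 1.41 to 12.6) and 5 of 20 GATA1 peaks (25%, 8.66 to 49.1) overlapped. Over the remainder of 1q the numbers were 4 of 659 (0.607%, 0.166 to 1.55) and 4 of 81 (4.94%, 1.36 to 12.2). The odds ratio was 8.85 for codanin-1 (1.60 to 48.3) and 6.42 for GATA1 (1.19 to 35.5). This division was made after the values were seen, and the first block also had more GATA1 peaks per codanin-1 peak. The contrast also rests on the region's bounds, because both left-out stretches lie beyond the first 10 Mb. With them kept, overlaps on 1q numbered 34 among 774 codanin-1 peaks and 29 among 143 GATA1 peaks. The densest stretch, from 201000001 to 207000000, held 1 shared codanin-1 peak among 124. The stretch from 226000001 to 232000000 held 0 among 111, not counting the left-out stretch inside it. That left-out stretch had 28 codanin-1 and 25 GATA1 peaks, and any overlaps there are not in this count.

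Besides these, 6 codanin-1 peaks lay within 1 kb of a GATA1 peak without touching it. The closest pair was 63 bp apart, codanin-1 at 155657559 to 155657780 (4.13-fold) and GATA1 at 155657844 to 155657991 (4.02-fold). At 458 bp followed codanin-1 at 228415630 to 228415845 (3.80-fold) beside the GATA1 peak at 228415103 to 228415171. The others were 563 bp (codanin-1 at 201863627 to 201864018), 570 bp (243651547 to 243651937), 624 bp (156071976 to 156072251) and 966 bp (150523322 to 150523665) apart. Of the 14 codanin-1 peaks outside the left-out stretches that overlapped or lay within 1 kb, 7 were in the first 10 Mb.

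Most codanin-1 peaks on 1q were far from any GATA1 peak. The median distance to the nearest was 219 kb (quartiles 60.7 and 639 kb, largest 3.42 Mb), against 98.2 kb on 1p (28.2 and 250 kb) and 94.5 kb over all chromosomes. A distance over 100 kb separated 491 codanin-1 peaks (66.6%) from GATA1, and over 1 Mb 118 (16.0%), against 49.4% and 6.69% on 1p. Within 100 kb of GATA1 lay 33.4% of codanin-1 peaks on 1q, 50.6% on 1p and 51.0% of the whole list. The share beyond 1 Mb was not computed for the whole list. Seen from GATA1 the median distance to codanin-1 was 15.7 kb (3.15 and 43.0 kb) on 1q, 9.05 kb on 1p and 3.90 kb over all chromosomes. On 1q 40 of 101 GATA1 peaks (39.6%) had a codanin-1 peak within 10 kb, against 53.3% on 1p and 61.4% of the whole list. Peaks of the left-out stretches, 37 of codanin-1 and 42 of GATA1, served here only as partners. The distances and shares of 1q with them kept were not computed. All these distances follow from the density of the list searched as well as from placement. Distance went with little change in the codanin-1 peaks themselves. Median fold was 3.92 for peaks up to 10 kb from GATA1 that did not overlap it, 4.01 from 10 to 100 kb and 3.94 beyond 100 kb, and median widths were 209, 193.5 and 196 bp. The 8 overlapping peaks had a median width of 330.5 bp, and a wider peak meets another more easily.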

How the data were processed

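K562 chromatin was immunoprecipitated from cells fixed for 10 minutes in 1% formaldehyde, per the labels' protocols. Per the submitters' processing notes, BWA and MACS2 were used with build hg19; their versions, the background library, the threshold, filters and pooling are not stated there or in the labels. Each deposited list is a broad peak file without a header. Its fold enrichment, a ratio, and its −log10 p and −log10 q values (a p-value and q-value on that scale) are the authors' deposited values per peak. The deposited score column was not used.

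Peaks were assigned by midpoint, coordinates are written from 1, and partners for overlap and distance came from the whole other list. Ratios carry exact conditional binomial intervals, ratios of ratios and odds ratios exact conditional intervals, and shares Clopper-Pearson intervals (95%). Peaks named are the 10 of highest fold, the 5 widest, those with a −log10 q of at least 5 and all overlapping sites; windows and empty stretches are the 10 fullest and 5 longest per list. The overlap sites, pairs within 1 kb and groups were listed besides. The region, definitions and comparisons were chosen with earlier results of these data known. Window counts at 161 and 228 Mb leave out the 2 excluded stretches. Empty stretches and gaps take account of them, and gaps inside them are not counted. Functions were tested on simulated data. Python 3.11.15, numpy 2.4.6, scipy 1.17.1, pandas 2.3.3 and matplotlib 3.10.9 were used.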

Additional observations from a re-analysis of the deposited data

How the results depend on the processing

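Of 71 alternatives for the densities, ratios and overlaps, 26 gave a value outside the 95% interval of the value reported, or changed whether the interval included 1; the cause was not tested. With the short arm taken from its start, the density on 1q over 1p was 0.574 for codanin-1 and 0.249 for GATA1, the codanin-1 to GATA1 ratio on 1p was 3.16, and the ratio of ratios was 2.31. With the 2 left-out stretches kept, the GATA1 density ratio was 1.08, codanin-1 per GATA1 on 1q was 5.41, the ratio of ratios was 0.920, and overlap on 1q was 4.39% of codanin-1 and 20.3% of GATA1 peaks. At a fold of at least 5, with 37 codanin-1 and 8 GATA1 peaks on 1q and 37 and 4 on 1p, the GATA1 density ratio was 1.85, codanin-1 per GATA1 was 4.63 on 1q and 9.25 on 1p, the ratio of ratios was 0.50, overlap on 1q was 0% of both lists (exact upper bounds 9.49% and 36.9%), and overlap of 1p GATA1 peaks was 25%. With −log10 q limited to 2 or more, codanin-1 per GATA1 on 1p was 8.00, and overlap on 1p was 0.658% of codanin-1 and 5.26% of GATA1 peaks. Requiring 0.5 of both lengths gave 0.279% and 1.64% on 1p against 0.678% and 4.95% on 1q, the reverse of the order of the arms by 1 bp. Allowing 1 kb gave 4.18% and 23.0% on 1p against 1.90% and 14.9% on 1q. Starting 10 Mb later gave a GATA1 density ratio of 0.684 (0.510 to 0.913) and a ratio of ratios of 1.38 (1.01 to 1.89), and merging peaks gave a GATA1 density ratio of 0.758 (0.576 to 0.995), so that these intervals no longer included 1. Leaving out the narrowest peaks or the fullest window of each arm, changed no such call and moved none of the 9 densities, ratios and overlaps outside its interval. Of 28 alternatives for windows, widths and folds on 1q, 16 fell outside. For the variance over the mean the bounds were a fixed band around the value, not a 95% interval. That band was 3.73 to 8.39 for codanin-1 and 1.31 to 2.94 for GATA1. Windows of 0.5, 1 and 2 Mb without a codanin-1 peak were 16.8%, 5.05% and 0% of the total, and those without GATA1 66.5%, 50.5% and 30%; with that q limit the 1 Mb values were 33.3% and 85.9%. The same limit gave median folds of 4.73 and 4.95 for codanin-1 and GATA1. Without the narrowest peaks the codanin-1 median width was 236 bp, and with the stretches kept GATA1 had a median width of 164 bp and a median fold of 4.10. The 1p dispersion values beside the alternatives, and the count of GATA1 peaks in the 2 densest stretches, were added after seeing the data. No paired analysis was possible because only 1 library stands for each antibody, and no replicate could be left out. Depth is unknown, so the number of sites below the calling threshold cannot be given.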

Other observations

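Neighbouring codanin-1 peaks outside the left-out stretches had the longer median gap on 1q and the longer extreme gaps on 1p. The median gap between neighbours was 57.6 kb (quartiles 20.1 and 136 kb) against 32.1 kb (10.4 and 93.6 kb), and 14.7% of gaps were within 10 kb against 24.5%. For GATA1 the median gap was 416 kb on 1q and 181 kb on 1p, while the longest gaps ran the other way, at 7.07 Mb and 12.8 Mb. Gaps inside the left-out stretches of 1q were not counted. The medians with them kept were not computed, so the order of the arms by median gap holds only without them. Gaps over 1 Mb summed to 69.4 Mb (23 gaps) on 1q and 68.1 Mb (19 gaps) of the shorter 1p region for GATA1, and to 20.2 Mb and 31.4 Mb for codanin-1 (13 gaps on each). Groups of at least 3 codanin-1 peaks, each within 10 kb of the next, numbered 15 on 1q and held 53 peaks (7.19%), against 36 and 124 (17.3%) on 1p. No such group of GATA1 peaks was found on 1p or among the counted peaks of 1q. The left-out stretches of 1q, with 37 codanin-1 and 42 GATA1 peaks, were not searched for groups of either list.

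The largest group on 1q outside the left-out stretches had 5 codanin-1 peaks within 5.91 kb, from 234912288 to 234918200. Their widths were 101 to 937 bp and their folds 3.18 to 3.77. The group includes the fourth-widest codanin-1 peak of 1q, and the nearest GATA1 peak was 1239 kb away. Groups of 4 lay at 201863627 to 201884984, with 1 GATA1 peak inside, and at 202197765 to 202212375, 203243448 to 203259432 and 206568168 to 206579899, with none. These 4 are in the dense stretch from 201000001 to 207000000. The groups and their distance limit were chosen after the data were seen, and no explanation was tested.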
